A study of Equus caballus with 6 samples.

Results

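Imprinted growth genes and the axis of insulin-like growth factor 2 (IGF2) were followed in the 2 tissues of the day 8 horse (Equus caballus) blastocyst. The set was named by 10 gene symbols: IGF2, IGF2R, PEG3, PEG10, MEST, CDKN1C, PHLDA2, GRB10, PLAGL1 and SGCE. Of these, 7 had a row among the 12270 genes of the deposited table. PEG10, CDKN1C and SGCE had no row under these symbols and are not analysed here. The table holds genes with at least 0.4 RPKM (reads scaled by counted gene length and by library depth) in at least 2 libraries.

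Blastocysts grown in superovulated mares were treated with Pronase and handled singly, and their cDNA was amplified before sequencing. The inner cell mass (ICM, which gives rise to the embryo proper and yolk sac endoderm) was freed by immunosurgery, and the trophectoderm (TE, the outer layer that contributes to the placenta) was isolated mechanically. There were 3 ICM libraries (15, 22 and 25) and 3 TE libraries (16, 23 and 24). The labels tie no ICM to a TE, name no mare and give no sex, and tissue and isolation method cannot be told apart. The library numbers are adjacent across tissues (15 and 16, 22 and 23, 25 and 24), but what these numbers stand for is not given.

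Imprinted genes are transcribed mainly from the copy inherited from 1 parent. In mouse and human, many genes expressed from the paternal copy promote fetal growth, and many expressed from the maternal copy restrain it. IGF2 is the classic paternally expressed growth factor, and its receptor IGF2R carries it to lysosomes for breakdown and acts as a brake. RPKM sum both parental copies, so the allele in use was not measured here. In these bulk samples, fewer cells of a type and less RNA per cell cannot be told apart.

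Reads in genes numbered 6622207 to 10686659 in ICM libraries and 6526212 to 9812871 in TE libraries. ICM 25 stood apart from the other ICM libraries in several measures. Mitochondrial genes took 10.1, 8.60 and 12.9% of reads in ICM 15, 22 and 25, against 12.3 to 13.9% in TE, and the 20 most abundant genes took 17.9, 18.0 and 22.7% in ICM 15, 22 and 25, against 20.5 to 22.4% in TE. The 11 of 15 epiblast markers in the table summed to 180, 191 and 80.9 RPKM in ICM 15, 22 and 25, against 66.3 to 97.1 RPKM in TE. The 10 of 13 hypoblast markers summed to 92.6, 96.0 and 30.7 RPKM in ICM 15, 22 and 25, against 29.6 to 41.4 RPKM in TE. The 8 of 13 trophectoderm markers summed to 49.8, 77.9 and 50.2 RPKM in ICM 15, 22 and 25, against 150 to 192 RPKM in TE. The epiblast sum in ICM 25 was largely made of genes that TE also expressed, such as POU5F1 (36.0 RPKM in ICM 25, against 33.2 to 53.6 RPKM in TE). Marker by marker, ICM 25 lay above every TE library for 7 of the 11 epiblast and 4 of the 10 hypoblast markers, below every TE library for 6 of the 10 hypoblast markers, and below every TE library for all 8 trophectoderm markers. The pluripotency factors KLF4 and NANOG, for example, had 8.09 and 1.75 RPKM in ICM 25, against 1.98 to 2.22 and 0.040 to 0.16 RPKM in TE. SOX2, a defining epiblast factor, had 84, 115 and 10 reads in ICM 15, 22 and 25 and 0 reads in every TE library. The 5 of 11 leukocyte and blood markers in the table summed to 2.67, 3.48 and 9.95 RPKM in ICM 15, 22 and 25, against 1.48 to 2.27 RPKM in TE. The 4 of 12 cumulus and endometrial markers summed to 7.01, 8.96 and 30.9 RPKM in these ICM libraries, against 11.4 to 24.1 RPKM in TE, mostly from CYP19A1, which trophoblast also makes. The part of these cell types and read shares in the results below was not tested. Results that turn on ICM 25 are given with and without it. Because ICM 25 was singled out from these same data, fits without it, on 2 ICM libraries, are descriptions.

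The members comprised abundant, intermediate and scarce genes. In ICM the means descended from MEST at 23.0 ± 6.87 RPKM and IGF2R at 22.4 ± 5.32 RPKM to PEG3 at 20.7 ± 12.7 RPKM and PLAGL1 at 10.4 ± 6.74 RPKM (SD, n = 3). GRB10 at 3.12 ± 1.74, IGF2 at 1.09 ± 0.80 and PHLDA2 at 0.70 ± 0.29 RPKM followed in ICM. Each member overlapped the next in this order within the range of the 3 ICM libraries. In TE the order was MEST at 23.1 ± 2.47, IGF2R at 22.9 ± 3.23, PEG3 at 8.28 ± 2.90, PLAGL1 at 3.07 ± 0.25 and GRB10 at 1.15 ± 0.45 RPKM, then PHLDA2 at 0.44 ± 0.14 and IGF2 at 0.28 ± 0.14 RPKM. There, MEST and IGF2R overlapped, as did PHLDA2 and IGF2, and each of the other steps exceeded the spread of the TE libraries. The mean of MEST lay above that of 88.1% of rows in ICM and 86.9% of rows in TE. Within TE, library 24 was the highest for 6 of the 7 members, IGF2R being the exception. For IGF2 and PHLDA2 this rests on 2 to 6 reads a TE library, and the share of all rows with TE 24 highest was not computed.

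**Figure D1:**
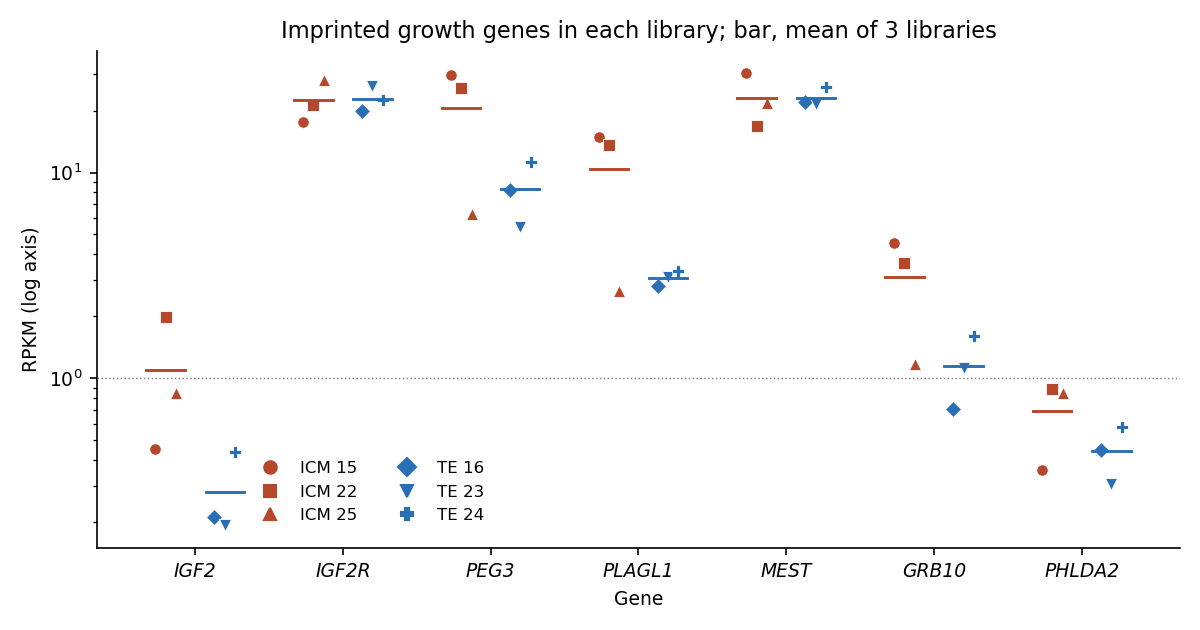
RPKM (log axis) of the 7 genes in each ICM library (left of each gene) and TE library (right), with a bar at each mean and a dotted line at 1 RPKM. PEG3, PLAGL1 and GRB10 were high in ICM 15 and 22 and at the TE level in ICM 25, while IGF2R and MEST overlapped between tissues.

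By RPKM over the counted bases, the ligand was scarce where its receptor was abundant. IGF2 was measured at 0.45, 1.99 and 0.84 RPKM in ICM 15, 22 and 25, against 0.21, 0.19 and 0.44 RPKM in TE 16, 23 and 24. These values rest on 6, 32 and 11 reads in ICM and 3, 2 and 6 reads in TE, over 540 counted bases. Whether untranslated ends are among the counted bases is not given, and levels compared between genes depend on this. The ICM values lay above all TE values, but by little, since ICM 15 and TE 24 had the same number of reads. Their 95% counting intervals (exact Poisson, counting error only) were 0.17 to 0.99 RPKM in ICM 15 and 0.16 to 0.95 RPKM in TE 24. The ratio of means was 3.89, and an exact two-sided permutation test on log2(RPKM + 1) gave p = 0.1, the smallest that 3 against 3 libraries allow. Over all rows, 25.4% had ICM and TE values that did not overlap, and 9.54% had ICM above TE. IGF2 met the minimum for a row (0.4 RPKM in 2 libraries) through ICM, since TE 24 alone among TE libraries passed 0.4 RPKM. The direction of its difference is thus partly bound by that minimum, and the tests of it are descriptions. The shares over all rows are not a matched background. IGF2 stayed below the filter of 1 RPKM in 3 libraries. With no filter its log2 difference was 0.65 (SE 0.28, 95% interval 0.02 to 1.27, limma adjusted p = 0.27), in a fit that called 0.929% of all rows. In the authors' deposited table its adjusted p was 0.0946. The row lies on chromosome 12 (30633633 to 30636431, build not named).

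IGF2R, the receptor that clears IGF2 and also sorts lysosomal enzymes, was measured at 17.7, 21.4 and 28.2 RPKM in ICM 15, 22 and 25, against 19.9, 26.3 and 22.4 RPKM in TE 16, 23 and 24. The tissues overlapped widely, and each value rests on 3180 to 4986 reads. The log2 difference (ICM minus TE, log2(RPKM + 1)) was -0.05 with a 95% interval of -0.63 to 0.54 (limma, adjusted p = 0.95), and its sign turned with rescaling. Over all 9436 genes tested the median difference was -0.15, and 0.01 after median of ratios rescaling, so a difference of this size is within what the scaling moves. The IGF2R row lies on chromosome 31 (2275066 to 2368892) and spans 7338 counted bases. Per length, IGF2R exceeded IGF2 by 39.0, 10.8 and 33.4 times in ICM 15, 22 and 25, against 93.6, 136 and 51.2 times in TE 16, 23 and 24. The ratio was lower in every ICM library than in any TE library (exact two-sided permutation test on its log2, p = 0.1, the smallest possible), with the few IGF2 reads behind it. The minimum that IGF2 met through ICM bears on this ratio too.

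PEG3, a zinc finger protein expressed from the paternal copy in mouse and human, was measured at 29.9, 25.9 and 6.27 RPKM in ICM 15, 22 and 25, against 8.23, 5.41 and 11.2 RPKM in TE 16, 23 and 24. ICM 15 and 22 were above every TE library, and ICM 25 lay among them. The mean was 2.50 times that of TE, with a log2 difference of 1.02 (SE 0.53, 95% interval -0.17 to 2.21, limma adjusted p = 0.37). Without ICM 25 the log2 difference was 1.68 (SE 0.27, adjusted p = 0.011). PEG3 lies on chromosome 10 (25781499 to 25793033) with 486 to 3617 reads a library.

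PLAGL1 encodes a zinc finger regulator that, in mouse, controls a network of imprinted genes including Igf2. It was measured at 14.9, 13.6 and 2.65 RPKM in ICM 15, 22 and 25, against 2.82, 3.10 and 3.31 RPKM in TE 16, 23 and 24. The TE libraries were nearly equal, ICM 15 and 22 stood far above them, and ICM 25 was below the lowest. ICM 15 and 22 averaged 5.38 times the value of ICM 25, the largest such ratio among the 7 genes. Across tissues the log2 difference was 1.22 (SE 0.51, 95% interval 0.06 to 2.38, limma adjusted p = 0.28), and 1.91 (SE 0.19, adjusted p = 0.0027) without ICM 25. Its row is on chromosome 31 (21988301 to 21995020).

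MEST, a hydrolase-like protein of the endoplasmic reticulum that mouse and human express from the paternal copy, was the member with the highest mean over the 6 libraries, 23.05 RPKM. It was measured at 30.4, 16.7 and 21.8 RPKM in ICM 15, 22 and 25, against 22.0, 21.4 and 25.9 RPKM in TE 16, 23 and 24. ICM libraries lay on both sides of the TE range. The log2 difference was -0.04 (95% interval -0.65 to 0.57, limma adjusted p = 0.96), with a sign that turned under either rescaling. MEST lies on chromosome 4 (85047754 to 85059815). These 3 genes did not share a pattern over the libraries, since PEG3 and PLAGL1 were low in ICM 25 and MEST was not.

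GRB10, an adaptor that binds the insulin and IGF1 receptors and dampens their signal, is maternally expressed in most mouse tissues. It was measured at 4.53, 3.64 and 1.17 RPKM in ICM 15, 22 and 25, against 0.71, 1.13 and 1.60 RPKM in TE 16, 23 and 24. As for PEG3, ICM 15 and 22 exceeded every TE library and ICM 25 lay among them. The log2 difference was 0.85 (SE 0.37, 95% interval 0.02 to 1.69, limma adjusted p = 0.29), and 1.26 (SE 0.25, adjusted p = 0.020) without ICM 25. The GRB10 row lies on chromosome 4 (20447794 to 20532152), with 55 to 216 reads in ICM and 36 to 79 in TE.

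PHLDA2, a small pleckstrin homology protein that restrains placental growth in mouse, was near the detection limit. It had 3, 9 and 7 reads in ICM 15, 22 and 25, against 4, 2 and 5 reads in TE 16, 23 and 24, over 342 counted bases on chromosome 12 (31274913 to 31275254). This corresponds to 0.36, 0.88 and 0.85 RPKM in ICM, against 0.45, 0.30 and 0.58 RPKM in TE. The tissues overlapped (exact two-sided permutation p = 0.3 on log2(RPKM + 1)), and a difference was not detectable at this depth.

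With all 6 libraries, 0 of the 5 members tested were called (limma, Benjamini-Hochberg adjusted p at 0.05), against 1.87% of all genes tested. PLAGL1 and GRB10 had an unadjusted p under 0.05, as did 16.9% of all genes tested (1592 of 9436), and voom on the recovered reads also called 0 (1.32% of all genes). Without ICM 25, which left 2 ICM libraries, PEG3, PLAGL1 and GRB10 were called higher in ICM. That fit called 11.5% of all genes, 5.89% with ICM higher. ICM 25 was singled out from these same data and is the ICM library in which these 3 genes were low, so the fit is a description. Leaving out ICM 15 instead gave limma adjusted p of 0.61 for PEG3, 0.48 for PLAGL1 and 0.48 for GRB10. Each of the other fits that left out 1 library also called none of the members. Weighting the libraries by their spread gave ICM 25 the lowest weight, 0.17, so this fit is no separate check. It called the same 3 genes and 8.05% of all genes, 3.87% with ICM higher and 4.19% with TE higher. The authors' deposited table, from the same 6 libraries with ICM 25 included, passed these 3 genes at 0.05, unlike the limma fit of all 6. Its adjusted p (DESeq, per the file headers) were 1.51e-07 for PEG3, 7.56e-11 for PLAGL1 and 0.00158 for GRB10. That table called 16.6% of its rows, 10.7% with ICM higher. Values of ICM 25 within or below the TE range were also seen for genes outside the set. Of the 556 genes called higher in ICM without that library, 284 (51.1%) had a value in ICM 25 at or below the highest TE library.

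**Figure D2:**
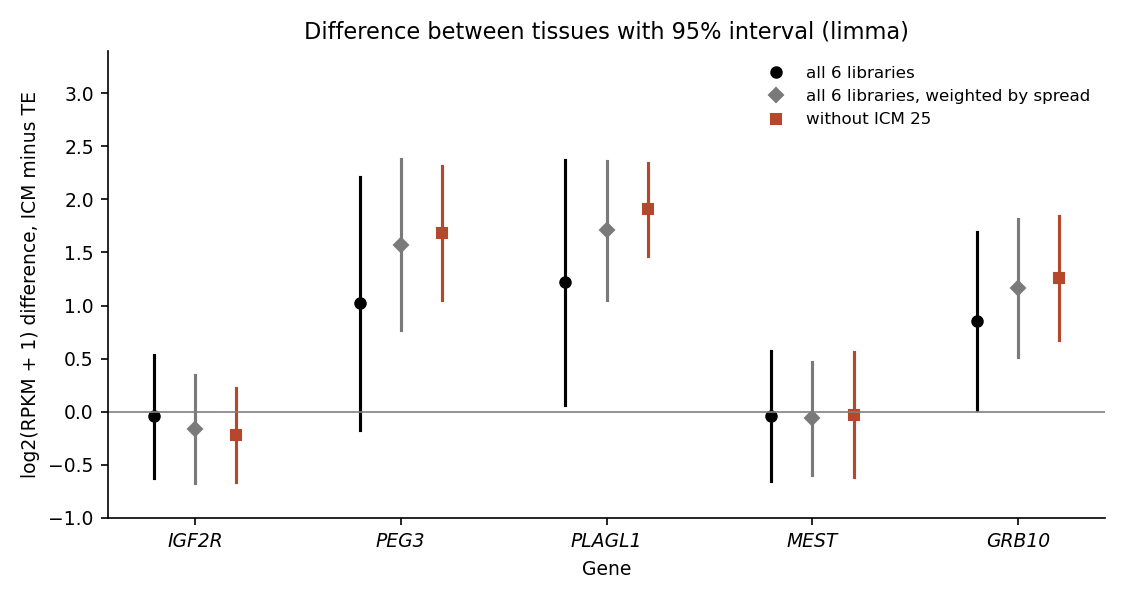
Log2 difference of ICM minus TE on the log2(RPKM + 1) scale for the 5 genes past the filter, with 95% intervals, for all 6 libraries, for all 6 with library weights, and without ICM 25. PEG3, PLAGL1 and GRB10 had intervals above 0 without ICM 25 and with library weights. With all 6 libraries unweighted, the intervals of PLAGL1 and GRB10 were also above 0, and that of PEG3 held 0. IGF2R and MEST had intervals that held 0 in each of these fits.

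Likeness of pattern was measured as the root-mean-square difference of centred log2(RPKM + 1) over the 6 libraries, and is a description. PEG3 and PLAGL1 differed by 0.28, GRB10 and PLAGL1 by 0.36, and PEG3 and GRB10 by 0.37. PLAGL1 was thus the 24th nearest gene to PEG3, and GRB10 the 90th. From GRB10, PLAGL1 ranked 330th and PEG3 355th, so many genes outside the set lay nearer to it. IGF2R differed from PLAGL1 by 1.08 and from PEG3 by 1.06, since it was highest in ICM 25 among the ICM libraries. Nearest to IGF2R were IL11RA (0.06), HIPK1 (0.06) and WDR6 (0.07), and nearest to MEST were TMEM9 (0.07), VPS37A (0.08) and PBX2 (0.08). For the 3 genes low in ICM 25 the neighbours were added after the values were seen. PLAGL1 lay nearest to PTGIS, the prostacyclin synthase (0.08), to SLC7A3, a carrier of basic amino acids (0.10), and to TGFBR3 (0.15). PEG3 lay nearest to LOC100059973 (0.13), ADD3 (0.15) and ZYG11A (0.21), and GRB10 to BAMBI, a pseudoreceptor that damps TGF-beta signals (0.10), SH3KBP1 (0.12) and BOD1L1 (0.13).

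Other ligands, receptors and binding proteins of the IGF system were sparsely represented. Of 21 genes listed, 9 were in the table and 6 were tested. None was called (limma), 0 had an unadjusted p under 0.05, and their median log2 difference was -0.13, against -0.15 over all genes. IGF1, the second IGF ligand, was measured at 9.73, 6.69 and 1.25 RPKM in ICM 15, 22 and 25, against 2.12, 3.52 and 2.54 RPKM in TE 16, 23 and 24. As for PLAGL1, ICM 15 and 22 were above every TE library and ICM 25 was below them. The log2 difference was 0.63 (SE 0.52, limma adjusted p = 0.59), and 1.30 (adjusted p = 0.017) without ICM 25. Per counted length (993 bases for IGF1, 540 for IGF2), IGF1 exceeded IGF2 in every library. In ICM 25 this order was not resolved, since IGF1 lay inside the 95% counting interval of IGF2 (exact Poisson, 0.42 to 1.51 RPKM on 11 reads).

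IGF1R, the signalling receptor for both ligands, ran the other way among the ICM libraries. It was measured at 0.20, 0.46 and 5.13 RPKM in ICM 15, 22 and 25, against 0.89, 1.28 and 1.02 RPKM in TE 16, 23 and 24. ICM 25 was far above the other libraries, and ICM 15 and 22 were below every TE library. The difference between tissues was not called with ICM 25 (log2 difference 0.10, limma adjusted p = 0.95) or without it (-0.63, adjusted p = 0.13). INSR, the insulin receptor, stayed below the filter at 0.655, 0.155 and 1.51 RPKM in ICM 15, 22 and 25, against 0.49 to 0.61 RPKM in TE, and was likewise highest in ICM 25. The other mannose 6-phosphate receptor, M6PR, averaged 9.17 ± 2.16 RPKM in ICM and 12.7 ± 1.55 RPKM in TE (SD, n = 3 each, limma adjusted p = 0.41). The mRNA-binding proteins IGF2BP1, IGF2BP2 and IGF2BP3, of which human family members bind IGF2 mRNA, averaged 32.4 ± 12.7, 1.92 ± 1.16 and 10.9 ± 3.61 RPKM in ICM. In TE they averaged 36.7 ± 4.31, 2.11 ± 0.61 and 11.4 ± 2.07 RPKM. Per counted length, IGF2BP1 and IGF2BP3 were thus far above their namesake ligand in both tissues. The adjusted p of the 3 genes were 0.755, 0.863 and 0.911 (limma).

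Signal transduction from the IGF receptor to AKT and MTOR was broadly expressed. Of 34 genes, 29 were in the table and 27 tested. None was called (limma), and 2 had an unadjusted p under 0.05, against 16.9% of all genes tested. The median log2 difference was -0.11, against -0.15 over all genes. FOXO3, a transcription factor that AKT keeps out of the nucleus, was measured at 10.6, 9.68 and 20.6 RPKM in ICM 15, 22 and 25, against 24.7, 29.6 and 24.7 RPKM in TE 16, 23 and 24. Every ICM library was below every TE library, ICM 25 the nearest to them. The log2 difference was -0.97 (SE 0.31, limma adjusted p = 0.16), and -1.29 (adjusted p = 0.0063) without ICM 25. NEDD4, a ubiquitin ligase that binds GRB10, averaged 3.33 ± 1.36 RPKM in ICM and 1.57 ± 0.28 RPKM in TE (SD, n = 3 each, limma adjusted p = 0.26). The docking protein GAB1 averaged 23.5 ± 3.17 in ICM and 16.1 ± 1.42 RPKM in TE (adjusted p = 0.30), and the adaptor GRB2 12.7 ± 1.87 in ICM and 18.3 ± 0.93 RPKM in TE (adjusted p = 0.31). AKT1 averaged 1.31 ± 0.59 in ICM and 2.28 ± 0.40 RPKM in TE, and the lipid kinase subunit PIK3CB 26.8 ± 5.22 in ICM and 18.9 ± 1.32 RPKM in TE (adjusted p = 0.36 and 0.37). The values of NEDD4, GAB1, GRB2 and PIK3CB did not overlap between tissues, a property of 24.6% of all genes tested.

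Further genes imprinted in human or mouse numbered 60, of which 28 had a row and 16 were tested. None was called (limma), and 2 had an unadjusted p under 0.05, against 16.9% of all genes tested. The median log2 difference was -0.22, against -0.15 over all genes. H19, the noncoding RNA that shares an imprinted domain with IGF2, was measured at 0.94, 7.97 and 81.0 RPKM in ICM 15, 22 and 25, against 26.3, 19.6 and 39.8 RPKM in TE 16, 23 and 24. ICM 15 and 22 were below all TE libraries and ICM 25 was above all of them, on 7, 72 and 592 reads. With all libraries the log2 difference was -1.34 (SE 1.09, limma adjusted p = 0.59), and without ICM 25 it was -2.77 (SE 0.58, adjusted p = 0.022). IGF2 did not follow H19 over the libraries, since its highest value was in ICM 22. The H19 row covers 303 counted bases on chromosome 12 (30528010 to 30528474). It was identified by its symbol and its place beside IGF2.

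PON2, a lactonase gene of the PEG10 and SGCE cluster, was measured at 0.35, 0.49 and 0.86 RPKM in ICM 15, 22 and 25, against 1.46, 3.92 and 3.34 RPKM in TE 16, 23 and 24. Every ICM library was below every TE library, ICM 25 included. Its log2 difference was -1.27 (SE 0.31, limma adjusted p = 0.082), and -1.40 (adjusted p = 0.032) without ICM 25. PPP1R9A of the same cluster, an actin-binding protein, averaged 5.98 ± 1.54 RPKM in ICM and 9.51 ± 2.16 RPKM in TE (SD, n = 3 each, limma adjusted p = 0.33). INPP5F, an inositol phosphatase, averaged 8.59 ± 1.31 in ICM and 13.0 ± 0.39 RPKM in TE (adjusted p = 0.27). GNAS, the stimulatory G protein subunit, averaged 198 ± 51.8 in ICM and 137 ± 18.4 RPKM in TE, and PHACTR2, beside PLAGL1, 2.78 ± 0.70 in ICM and 1.82 ± 0.09 RPKM in TE (adjusted p = 0.39 and 0.44). GAB1, given above, is also in this list.

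**Figure D3:**
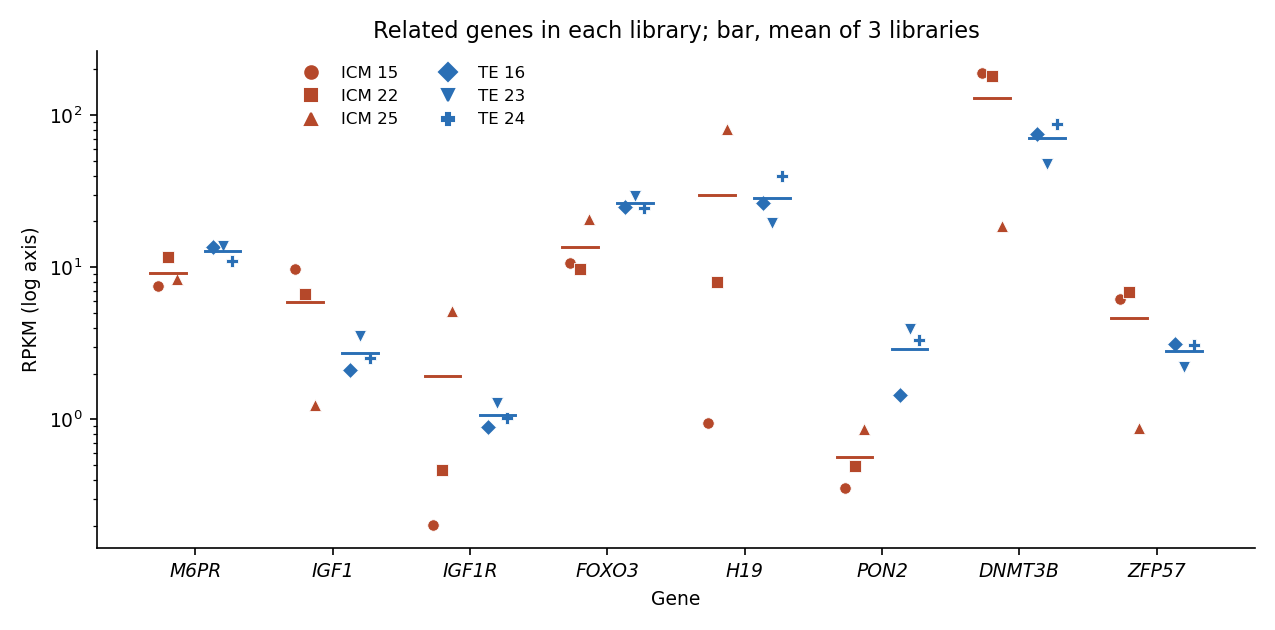
RPKM (log axis) of 8 related genes in each ICM library (left of each gene) and TE library (right), with a bar at each mean; the genes shown were chosen after their values were seen. IGF1, DNMT3B and ZFP57 were lowest in ICM 25, and IGF1R and H19 were highest there.

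A list of factors that write, maintain or remove DNA methylation, with imprint-binding and Polycomb proteins, was tested for 19 of 27 genes, the 19 in the table. None was called (limma), and 2 had an unadjusted p under 0.05, against 16.9% of all genes tested. The median log2 difference was 0.03, against -0.15 over all genes. The 2 were UHRF1, which guides DNMT1 to replicated DNA, at 1.36 ± 0.67 RPKM in ICM and 3.08 ± 0.56 RPKM in TE (SD, n = 3 each, limma adjusted p = 0.184), and the oxidase TET2, at 6.32 ± 0.84 in ICM and 10.1 ± 0.87 RPKM in TE (adjusted p = 0.22). ARID4A, which acts at an imprinting centre in mouse, averaged 6.22 ± 0.50 in ICM and 4.23 ± 0.23 RPKM in TE (adjusted p = 0.34), and its relative ARID4B 3.94 ± 0.885 in ICM and 2.73 ± 0.34 RPKM in TE (adjusted p = 0.47). The Polycomb subunits EZH2 and SUZ12 averaged 30.5 ± 12.0 and 14.7 ± 6.11 RPKM in ICM, and 17.9 ± 2.50 and 19.6 ± 1.83 RPKM in TE (adjusted p = 0.37 and 0.52).

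Without ICM 25, 4 of these 19 genes were higher in ICM, against 5.89% of all genes tested. DNMT3B, a methyltransferase that sets new marks, was measured at 188, 180 and 18.6 RPKM in ICM 15, 22 and 25, against 75.5, 47.7 and 87.2 RPKM in TE 16, 23 and 24. ICM 15 and 22 lay above all TE libraries and ICM 25 below all of them (log2 difference 0.34 with all libraries, limma adjusted p = 0.87, and 1.42, adjusted p = 0.015, without ICM 25). ZFP57, which binds methylated imprinting control regions in mouse and human, was measured at 6.17, 6.87 and 0.88 RPKM in ICM 15, 22 and 25, against 3.12, 2.22 and 3.10 RPKM in TE 16, 23 and 24 (without ICM 25, 0.99, adjusted p = 0.026). The others were EZH2 (1.04, limma adjusted p = 0.013) and the oxidase TET1 (0.87, adjusted p = 0.034). DNMT3B, ZFP57 and TET1 were below every TE library in ICM 25.

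Cell cycle partners of CDKN1C, itself a cyclin-dependent kinase inhibitor, were tested for 16 of 22 genes. None was called (limma), and 3 had an unadjusted p under 0.05, against 16.9% of all genes tested. The median log2 difference was -0.32, against -0.15 over all genes. RBL1, a pocket protein related to RB1, averaged 3.07 ± 0.915 RPKM in ICM and 5.99 ± 0.821 RPKM in TE (SD, n = 3 each, limma adjusted p = 0.17). The cyclins CCNE2 and CCNA2 averaged 7.09 ± 2.46 and 30.5 ± 14.8 RPKM in ICM, and 12.9 ± 1.24 and 58.2 ± 1.91 RPKM in TE (adjusted p = 0.185 and 0.205). CDK1 averaged 22.8 ± 8.67 in ICM and 34.7 ± 3.03 RPKM in TE, RBL2 1.79 ± 0.393 in ICM and 2.68 ± 0.395 RPKM in TE, and CCNB1 42.8 ± 17.2 in ICM and 59.0 ± 7.16 RPKM in TE (adjusted p = 0.32, 0.44 and 0.47). For 5 of the 16 genes all TE values lay above all ICM values, which held for 17.8% of all genes tested. ICM 25 was the lowest library of all for 5 of the 6 genes named, RBL2 being the exception.

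**Figure D4:**
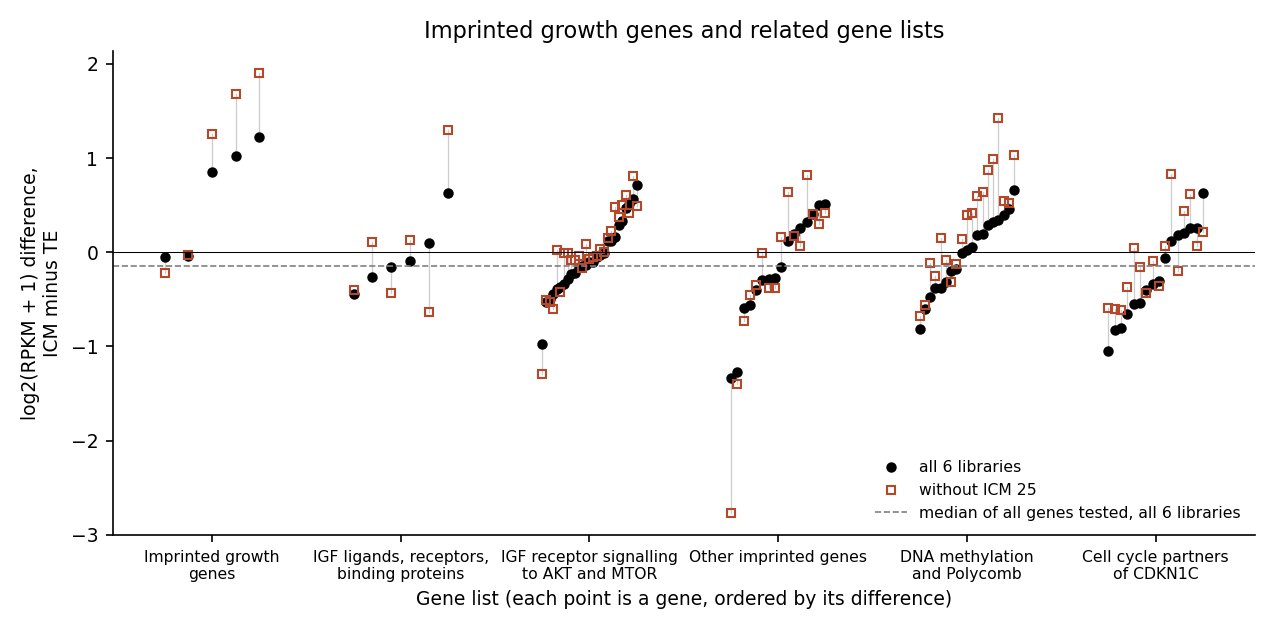
Log2 difference of ICM minus TE on the log2(RPKM + 1) scale for each tested gene of the imprinted growth set and of 5 related lists, with all 6 libraries (filled) and without ICM 25 (open), joined by a line. The dashed line is the median of all genes tested, -0.15; H19 moved the most among the listed genes when ICM 25 was left out.

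Over these 5 lists, 82 distinct genes were tested, 9 had an unadjusted p under 0.05 (against 16.9% of all genes tested), and 0 were called with all libraries by limma or by voom. Without ICM 25, 5 were higher in ICM (DNMT3B, TET1, EZH2, ZFP57 and IGF1) and 3 were higher in TE (FOXO3, PON2 and H19), against 5.89% and 5.62% of all genes tested. With library weights, EZH2 (0.95, limma adjusted p = 0.037) and FOXO3 (-1.23, adjusted p = 0.0099) were called.

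Genes beside the members were read from the deposited coordinates, as rows within 250 kb, an extent chosen after the values were seen. There were 20 such genes, none beside PEG3 or GRB10, and 0 of the 16 tested were called with all libraries (limma). Without ICM 25, 4 were called (H19, ACAT2, CEP41 and TMEM209, each higher in TE), against 11.5% of all genes tested. The tissues did not overlap for 6 of the 20, against 25.4% of all rows. These were CD81, ACAT2, WTAP, CEP41, PHACTR2 and ZC2HC1B, of which CD81 met the minimum for a row through ICM alone. ZC2HC1B and PHACTR2, within this distance of PLAGL1, averaged 2.45 ± 1.01 and 2.78 ± 0.70 RPKM in ICM, and 0.86 ± 0.20 and 1.82 ± 0.09 RPKM in TE. LTV1, which lies between them, and SF3B5, on the other side of PLAGL1, overlapped between tissues. Beside IGF2R, ACAT2, an enzyme of acetyl-CoA metabolism, averaged 95.6 ± 26.3 RPKM in ICM and 165 ± 11.7 RPKM in TE (SD, n = 3 each, limma adjusted p = 0.16, and 0.012 without ICM 25). Beside MEST, the cilia gene CEP41 averaged 1.80 ± 0.52 in ICM and 3.96 ± 0.48 RPKM in TE (adjusted p = 0.14, and 0.047 without ICM 25), and TMEM209 13.1 ± 5.06 in ICM and 19.2 ± 1.75 RPKM in TE (adjusted p = 0.36, and 0.024 without ICM 25). COPG2, also beside MEST, averaged 2.46 ± 0.12 in ICM and 2.04 ± 0.45 RPKM in TE. The interval of the MRPL23 row (30487253 to 30675084 on chromosome 12) spans H19 and IGF2. No source names the strand used in counting, and reads from overlapping rows cannot be told apart. MRPL23 averaged 32.6 ± 8.32 RPKM in ICM and 39.9 ± 8.41 RPKM in TE (SD, n = 3 each, limma adjusted p = 0.64).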

How the data were processed

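The deposited table gives the authors' RPKM of 6 libraries and, per the file headers, the authors' results of DESeq. The authors' table holds the mean normalized signal (baseMean), the fold as a ratio of ICM over TE, its log2 value, and p-values. The authors used FastQC and DESeq, per the submitters' processing notes. Aligner, annotation, build: not given in the sources used here. RPKM times baseMean over mean RPKM gave whole reads within 0.001 for 100% of values up to 1000 reads in each library, and so the reads and counted length of each gene. These reads are amplified cDNA, so intervals cover counting error only. Of the 7 members, 5 had a counted length that was a multiple of 3, against 47.3% of rows. Reads from untranslated ends may be missed, so levels compared between genes carry this limit.

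Genes with at least 1 RPKM in 3 libraries (9436) were compared on log2(RPKM + 1), pseudocount 1, with limma 3.58.1 in R 4.3.3 (trend, two-sided, Benjamini-Hochberg at 0.05). Differences are ICM minus TE and understate changes of low genes. Each p reflects only how much these libraries vary. Members and lists were chosen with earlier results of these data known. From each list, called genes and the 6 with the smallest p were named, and any others after their values were seen. A row named KCNQ1OT1 lies on chromosome 19, away from KCNQ1, and was counted in its list but not read as that RNA. Members' sequences are not printed. Likeness left out genes with under 50% of the member's variance. Alternatives were another pseudocount, other filters, rescaling, quantile normalization, library weights, voom and leaving out each library.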

Additional observations from a re-analysis of the deposited data

How the results depend on the processing

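The number of all genes called, 176, was 112 when the pseudocount was 0.1, 114 unfiltered, 81 when 5 RPKM was required, 760 under library weights, and 0 to 1086 with 1 library left out (983 genes had an unadjusted p under 0.05 without TE 16, the fit with 0 calls). The 176 comprised 88 higher in ICM and 88 higher in TE, against 128 and 64 after median of ratios rescaling and 129 and 77 after quantile normalization. The number of members called, 0, became 3 with library weights and 0 to 3 with 1 library left out, the 3 without ICM 25. The genes called in the 5 lists, 0, became 2 with library weights and 0 to 8 with 1 library left out. PEG3, PLAGL1 and GRB10 kept ICM above TE in every fit that held them, at 0.64 to 1.68, 0.84 to 1.91 and 0.59 to 1.32. The difference of IGF2R turned to 0.14 with median of ratios rescaling, 0.10 with quantile normalization, 0.11 without ICM 15 and 0.06 without TE 23, within -0.22 to 0.11 over the fits that left out 1 library. That of MEST turned to 0.14, 0.11, 0.15 (without ICM 22) and 0.04 (without TE 24), within -0.26 to 0.15 over those fits. The causes were not tested. With a filter of 5 RPKM, GRB10 and PLAGL1 had no value. No paired analysis was run because the labels tie no ICM to a TE. Whether any ICM and TE libraries came from the same blastocyst is not given, and the fits treat all libraries as independent. IGF2 and PHLDA2 rest on 2 to 32 reads a library, which limits what can be seen of them.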

Other observations

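Of the further imprinted genes, 12 stayed below the filter. With no filter, 0 of them were called (limma, lowest adjusted p = 0.14) and 4 had an unadjusted p under 0.05, namely MEG3, CD81, L3MBTL1 and PDE10A. The tissues did not overlap for 5, these 4 and CALCR, and those described were chosen after their values were seen. Each of the 5 met the minimum for a row (0.4 RPKM in 2 libraries) through a single tissue. Their lack of overlap thus follows in part from that minimum and is a description. MEG3, a noncoding RNA of the maternal copy in mouse and human, was measured at 3.86, 1.73 and 0.50 RPKM in ICM 15, 22 and 25 (156, 85 and 20 reads), against 0, 0.063 and 0.26 RPKM in TE 16, 23 and 24 (0, 2 and 11 reads). All ICM libraries lay above all TE libraries. DIO3, the thyroid hormone deiodinase whose row is on the same chromosome, was measured at 0.054, 1.23 and 5.28 RPKM in ICM 15, 22 and 25, against 0.10, 0.21 and 0.36 RPKM in TE 16, 23 and 24. MEG3 was lowest and DIO3 highest in ICM 25 among the ICM libraries. CD81, a tetraspanin between IGF2 and PHLDA2, was measured at 1.14, 0.76 and 0.47 RPKM in ICM 15, 22 and 25, against 0.040, 0.11 and 0.33 RPKM in TE 16, 23 and 24. PDE10A, a phosphodiesterase, was at 1.85, 1.43 and 0.40 RPKM in ICM 15, 22 and 25, against 0.26 to 0.31 RPKM in TE. CALCR, the calcitonin receptor, went the other way, at 0.028, 0.068 and 0.084 RPKM in ICM 15, 22 and 25, against 0.21, 0.42 and 0.48 RPKM in TE 16, 23 and 24. Over all rows, 25.4% had tissues that did not overlap, 9.54% with ICM above TE. These shares are not a matched background for rows so near the minimum.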
